A study of Mus musculus with 8 samples.

Results

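Laminins, nidogens, perlecan, dystroglycan and the integrins are the proteins by which a cell is anchored to its basement membrane. The 41 mouse genes described here were chosen by symbol, as all laminin chain genes (Lama, Lamb and Lamc), Nid1, Nid2, Hspg2, Dag1 and all integrin alpha and beta genes, out of 25237 genes in the table. Of the 41, 36 had a mean of at least 10 normalized reads over the 8 libraries and were tested, and 5 (Itgad, Itgae, Itgax, Lama1 and Lamb3) were below it. Muscle stem cells came from male mice of 2 to 4 months that had been given PBS, the buffer control, or ketones, the ketone bodies that the liver makes from fat during fasting. The labels name neither the ketone agent nor its dose or duration. Polyadenylated RNA was copied to cDNA and sequenced. There were 4 PBS and 4 ketones libraries, all from hindlimb muscle cells sorted as VCAM1 positive and as negative for CD31, CD45 and Sca1. The mice were described as wild type, with no transgene named. All PBS libraries carried the strain entry C57BL/6, and the entries were C57BL/7, C57BL/8, C57BL/9 and C57BL/9 for ketones libraries 1 to 4. If these entries name strains, strain and treatment cannot be told apart. Nothing in the labels ties a library to a separate animal, and the spread behind each p-value may thus be technical in part.

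A muscle stem cell lies between the muscle fibre and the basement membrane that surrounds the fibre. Laminins are secreted as trimers of an alpha, a beta and a gamma chain and polymerise into the sheet that cells touch, while nidogens and perlecan tie this sheet to collagen IV. Cells hold the sheet through dystroglycan, which joins laminin to dystrophin inside the cell, and through integrins, each a pair of an alpha and a beta subunit that binds laminin, collagen, fibronectin or a protein on another cell. In muscle the main laminin receptors are dystroglycan and the integrin formed by the Itga7 and Itgb1 products.

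Promoter sequence was found in the RefSeq promoter table (build GRCm38.p6) for 26 of the 41 genes. The 250 bases before the annotated start of 3 of them are shown because they stand for both directions of change described below, Dag1 and Itgb1 for the genes that fell and Itga1 for those that rose. They are written 5′ to 3′ on the strand of the gene, and capitals mark every match, on either strand, to any of 5 motifs: the GC box core GGGCGG, the E-box CAGCTG, the ETS core CCGGAA, the TATA box TATAAA and the CCAAT box. The GC box and CCAAT motifs did not overlap in the sequences shown. Dag1 lies on the minus strand (chr9:108263959-108264208), Itgb1 on the plus strand (chr8:128685404-128685653) and Itga1 on the minus strand (chr13:115101965-115102214).
Dag1: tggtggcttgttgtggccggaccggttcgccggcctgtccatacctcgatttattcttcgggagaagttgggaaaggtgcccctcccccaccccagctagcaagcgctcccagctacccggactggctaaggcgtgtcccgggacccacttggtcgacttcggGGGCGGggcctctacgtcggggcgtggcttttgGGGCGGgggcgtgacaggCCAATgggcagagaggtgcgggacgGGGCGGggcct
Itgb1: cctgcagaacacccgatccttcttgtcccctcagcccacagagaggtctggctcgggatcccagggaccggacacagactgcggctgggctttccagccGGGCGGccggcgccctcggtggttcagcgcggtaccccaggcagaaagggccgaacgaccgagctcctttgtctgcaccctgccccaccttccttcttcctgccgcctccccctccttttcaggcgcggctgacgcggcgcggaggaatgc
Itga1: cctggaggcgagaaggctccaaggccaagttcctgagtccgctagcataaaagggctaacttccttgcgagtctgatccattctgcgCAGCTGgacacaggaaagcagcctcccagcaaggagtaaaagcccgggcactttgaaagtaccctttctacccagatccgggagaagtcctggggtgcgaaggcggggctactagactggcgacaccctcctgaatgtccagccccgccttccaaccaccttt
The Dag1 sequence held 3 matches to GGGCGG and 1 to CCAAT. The Itgb1 sequence held 1 match to GGGCGG, and the Itga1 sequence held 1 match to CAGCTG. Among promoters of genes that fell with ketones, 5 of 7 held GGGCGG, against 1 of 6 among genes that rose and 5 of 11 among those that did not pass. The share was 33.0% of 27025 genes with a promoter of this length, which include genes not tested here. CAGCTG was in 0 of the 7, in 3 of the 6 (Itga1, Itga2b and Itga9) and in 2 of the 11, against 12.7% of all these genes. The RefSeq start used for Itga9 lies inside the gene as GENCODE annotates it, so its sequence may not be the main promoter. CCAAT was in 2 of 7 and 0 of 6 (34.5% of all), CCGGAA in 0 of 7 and 1 of 6 (12.3% of all), and TATAAA in 0 of both (13.0% of all). These counts describe letters in a window and were not tested.

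Recovered depth was 19174005 to 36870537 reads per library. All 12 muscle stem cell markers were detected, among them Pax7, the transcription factor that defines these cells, at 2125 ± 301 normalized reads in PBS and 1792 ± 215 with ketones (mean ± SD, n = 4 per group throughout). Of these 12 markers 5 were lower (Cdh15, Msc, Chrdl2, Calcr and Vcam1) and 1 (Cd34) was higher with ketones. Over all genes tested, 12.8% were lower and 12.8% higher. Cdh15 went from 20038 ± 688 to 6282 ± 1957. The summed level of the 12 was 335349 to 362981 in PBS and 237714 to 346275 with ketones. Its largest member was Sdc4, which did not pass (153223 ± 8128 and 165225 ± 28282), so the sum does not show the size of these falls. Without ketones library 3 the number lower was 8, and the number higher was 0 without any 1 of PBS libraries 1 to 4 or ketones libraries 3 or 4. Ketones library 1 had the highest summed level of blood and of myofiber markers among the 8 libraries. Ketones libraries 1 and 2 stood apart in earlier results on a ribosomal RNA precursor, which are not shown here. Results that change without both are given with the genes concerned (Itga2b, Itga3, Itga2 and Itgb3). Only ketones libraries 3 and 4 then remain in their group.

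With ketones, Dag1, Itga7, Nid2, Hspg2 and 5 of 9 laminin genes were lower, and 8 of 23 integrin genes, Itga6 first among them, were higher. By limma on log2(normalized reads + 1), with p adjusted over all 14022 genes tested and a threshold of 0.05, 11 of the 36 genes fell (30.6%) and 9 rose (25.0%). Over all genes tested, 12.8% were lower and 12.8% higher, 25.7% in either direction. The 11 that fell were Dag1, Nid2, Hspg2, Itga7, Lamc1, Lama3, Itgav, Lama2, Lamb1, Lama5 and Itgb1. The 9 that rose were Itga6, Itga9, Itgb4, Itga1, Itgb7, Itga11, Lama4, Itga2b and Itga3. The median log2 change was -0.22 over the 36 genes and -0.01 over all genes tested. Each of the 8 libraries is a pool of many cells, so fewer cells of a type and less RNA per cell cannot be told apart in any of these differences.

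**Figure D1:**
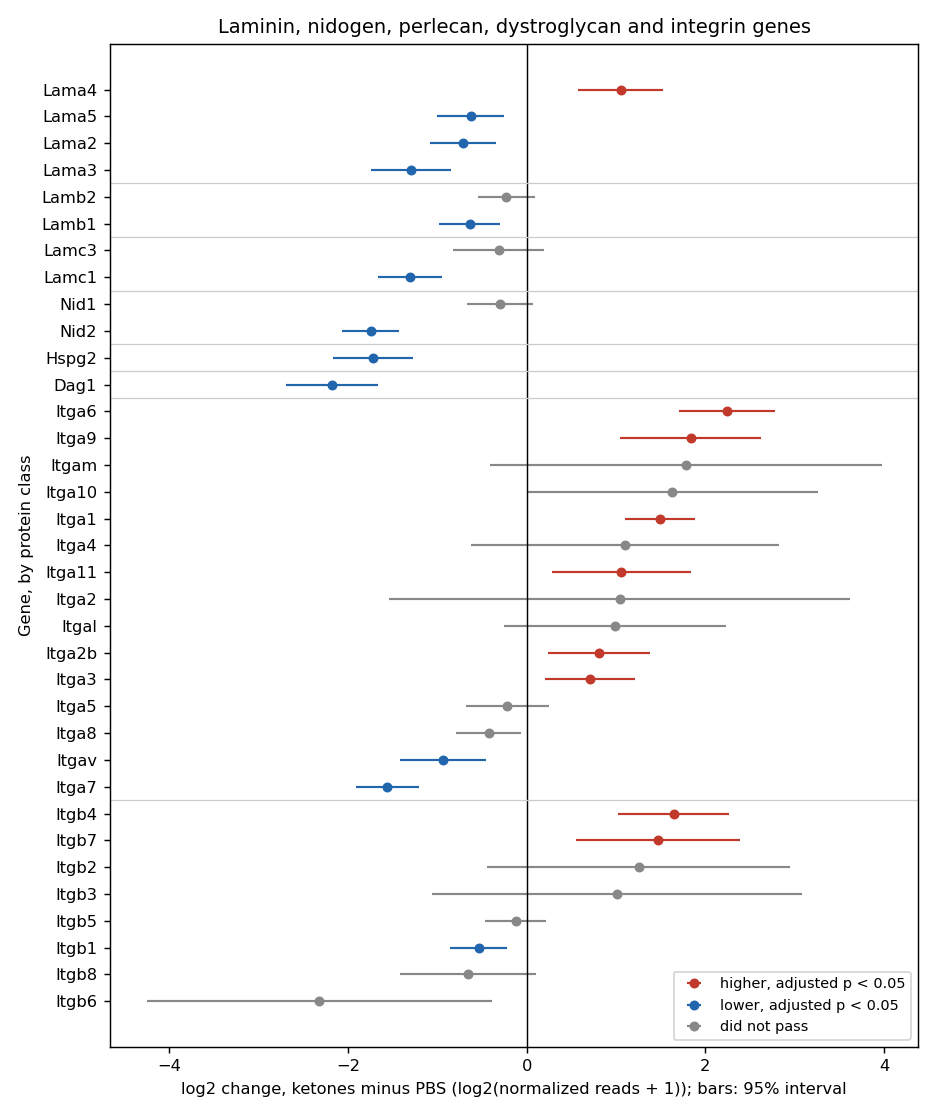
Log2 change (ketones minus PBS, horizontal axis) of the tested genes named here, ordered by protein class on the vertical axis, with 95% intervals from limma; red marks genes that passed as higher, blue as lower and grey those that did not pass. Dag1, Nid2 and Hspg2 lie furthest to the left among genes that passed, and Itga6 furthest to the right.

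Of the 12 laminin, nidogen and perlecan genes tested, 7 fell (58.3%) and 1 rose (8.33%), with a median log2 change of -0.63. Of the 23 integrin genes tested, 8 rose (34.8%) and 3 fell (13.0%), with a median of 1.01, so the share that fell was near the 12.8% of all genes. The 2 classes were not tested against each other. The integrin count changed with single libraries left out. Of the integrin genes, 4 rose without PBS library 2, 4 rose and 5 fell without ketones library 4, and 5 rose without PBS library 1, PBS library 3 or ketones library 1. With no filter on the level, 5 rose too. Calls over all genes also went from 3600 to 2882 without PBS library 2 and 3097 without ketones library 4, but to 4076 without ketones library 1. Itga6, Itga9, Itga1 and Itgb4 passed as higher in every alternative analysis. With 1 library left out, 6 to 8 of the 12 basement membrane genes fell and 1 rose. Groups did not overlap, meaning that every library of one group lay beyond every library of the other, for 12 of the 36 genes in the lower direction and 8 in the higher. Over all genes tested, 14.1% were separated in this way in the lower direction and 14.2% in the higher, 28.3% in either.

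Dag1 (chromosome 9, 108204634 to 108263958 in GRCm38, like all coordinates here) encodes dystroglycan, which is cut into a subunit that binds laminin outside the cell and a subunit that spans the membrane. Its level was 119332, 142102, 112423 and 102825 normalized reads in PBS libraries 1 to 4 and 19762, 18876, 39274 and 31879 in ketones libraries 1 to 4. The lowest PBS library was well above the highest ketones library, and ketones libraries 1 and 2 were below ketones libraries 3 and 4. The mean went from 119171 ± 16719 to 27448 ± 9867, a log2 change of -2.18 ± 0.24 (SE; adjusted p = 3.02e-05), which is 4.53-fold lower. Per kilobase of exon its level in PBS was 18746 normalized reads per kb, above the 4803 of Itgb1, which was the next of the 41 genes.

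Among the laminin alpha chains, 3 fell and 1 rose. Lama2 encodes the alpha chain of the main muscle fibre laminin, whose loss causes a congenital muscular dystrophy (chromosome 10, 26980036 to 27619758). It read 5883, 4597, 5870 and 6693 in PBS and 3481, 3237, 4556 and 2838 with ketones, a log2 change of -0.72 ± 0.17 (adjusted p = 0.00796). The groups were close, ketones library 3 at 4556 lying just under PBS library 2 at 4597. Lama3, known as an epithelial chain (chromosome 18, 12333819 to 12583013), read 1124, 791, 860 and 1052 in PBS and 497, 368, 446 and 269 with ketones. Its log2 change was -1.30 ± 0.21 (adjusted p = 0.000557), with no overlap. Lama5 encodes a chain found in vessel walls, epithelia and the stem cell niche. It read 799, 709, 811 and 923 in PBS and 638, 477, 429 and 568 with ketones, a log2 change of -0.63 ± 0.17 (adjusted p = 0.0174). The Lama5 call was lost without PBS library 1, 3 or 4, with adjusted p of 0.0530, 0.0509 and 0.0673.

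Lama4 went the other way. It encodes the alpha chain best known from the basement membrane of blood vessels (chromosome 10, 38965515 to 39110188). It read 247, 225, 317 and 253 in PBS and 770, 585, 413 and 445 with ketones. Every ketones library was above every PBS library, the highest being ketones library 1. The log2 change was 1.05 ± 0.22 (adjusted p = 0.0036), which is 2.07-fold higher.

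Among beta and gamma chains, Lamc1 changed most. It encodes the gamma chain shared by most laminins (chromosome 1, 153218922 to 153332786). Its level was 19494, 20401, 18113 and 17809 in PBS and 6049, 6850, 9794 and 8433 with ketones. The log2 change was -1.31 ± 0.17 (adjusted p = 8.83e-05), which is 2.47-fold lower, and the groups were far apart. Lamb1 encodes the beta chain of many early and vascular laminins. It read 1296, 1030, 1291 and 1141 in PBS and 743, 628, 851 and 843 with ketones, a log2 change of -0.64 ± 0.16 (adjusted p = 0.0101), again without overlap. Lamb2, the beta chain of the synaptic part of the muscle basement membrane, did not pass, at 7854 ± 406 in PBS and 6779 ± 1199 with ketones (95% interval of the log2 change -0.55 to 0.10). Lamc3, another gamma chain, was 5120 ± 695 and 4333 ± 1529 (interval -0.82 to 0.20).

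Of the linkers of the sheet, Nid2 and Hspg2 fell. Nid2, nidogen-2 (chromosome 14, 19751265 to 19811787), read 3137, 2890, 3119 and 2729 in PBS and 847, 759, 879 and 1074 with ketones. The values were tight in both groups, and the log2 change was -1.75 ± 0.15 (adjusted p = 4.36e-06), 3.36-fold lower and the smallest adjusted p of the 36 genes. Nid1, nidogen-1, did not pass, at 3465 ± 142 in PBS and 2883 ± 702 with ketones (interval of the log2 change -0.66 to 0.07). Its ketones libraries read 2245, 2311, 3564 and 3412, so libraries 1 and 2 were below all PBS libraries while 3 and 4 were not. Whether the change of Nid2 differed from that of Nid1 was not tested. Hspg2 encodes perlecan, a heparan sulfate proteoglycan of the basement membrane (chromosome 4, 137468769 to 137570630). It read 8228, 5522, 7711 and 7893 in PBS and 3234, 2111, 2206 and 1547 with ketones. Its log2 change was -1.72 ± 0.21 (adjusted p = 5.84e-05), which is 3.3-fold lower, with no overlap.

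Of the integrin genes, the 3 that fell were among the 5 with the highest level per kilobase of exon in PBS. Itga7 encodes the alpha subunit of the muscle laminin receptor (chromosome 10, 128933818 to 128958282). It read 15351, 12401, 14121 and 14222 in PBS and 5423, 3610, 5642 and 4585 with ketones. All ketones libraries were below all PBS libraries, and the log2 change was -1.56 ± 0.16 (adjusted p = 2.01e-05), which is 2.95-fold lower. Itgb1 encodes the beta subunit with which most of these alpha subunits pair (chromosome 8, 128685654 to 128733200). It read 20101, 19082, 20771 and 18443 in PBS and 12278, 12447, 13131 and 16442 with ketones, a smaller log2 change of -0.54 ± 0.15 (adjusted p = 0.0173). Its call was lost without PBS library 1 (adjusted p = 0.0641) or PBS library 3 (adjusted p = 0.0631). Itgav encodes a subunit of receptors for vitronectin, fibronectin and latent TGF-beta (chromosome 2, 83724397 to 83806916). It read 3544, 3712, 3818 and 3459 in PBS and 1223, 1513, 2773 and 2497 with ketones, a log2 change of -0.94 ± 0.23 (adjusted p = 0.00783).

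Itga6 rose most among the 36 genes. It encodes the laminin-binding subunit that pairs with the Itgb1 or the Itgb4 product (chromosome 2, 71745616 to 71858416). It read 233, 220, 239 and 255 in PBS and 1510, 1424, 617 and 1191 with ketones. The PBS libraries were almost level and every ketones library was above them, ketones library 3 least. The mean went from 237 ± 14.6 to 1186 ± 402, a log2 change of 2.24 ± 0.25 (adjusted p = 3.05e-05), which is 4.73-fold higher. Itgb4, the partner of Itga6 in hemidesmosomes (chromosome 11, 115974709 to 116008412), read 84.2, 104, 122 and 121 in PBS and 509, 424, 194 and 302 with ketones. Its log2 change was 1.64 ± 0.29 (adjusted p = 0.00111), with ketones library 3 again the lowest of its group. Itga3, another laminin-binding subunit, read 157, 124, 165 and 141 in PBS and 318, 254, 173 and 232 with ketones, a log2 change of 0.71 ± 0.24 (adjusted p = 0.0416). The Itga3 call did not hold in 11 of the 20 alternative analyses, among them those without PBS libraries 1, 2, 3 or 4 (adjusted p = 0.0826, 0.104, 0.0658 and 0.0977) or without ketones libraries 1, 2 or 4 (0.0839, 0.0610 and 0.0710). Without ketones libraries 1 and 2 together its adjusted p was 0.166.

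Of the subunits that bind collagen, Itga1 and Itga11 rose. Itga1, which binds collagen IV and other collagens (chromosome 13, 114953096 to 115101964), read 247, 194, 187 and 207 in PBS and 623, 597, 500 and 645 with ketones. Both groups were narrow and well apart, and the log2 change was 1.50 ± 0.18 (adjusted p = 6.11e-05), which is 2.82-fold higher. Itga11, a receptor subunit for fibrillar collagen, read 74.4, 55.7, 55.4 and 97.4 in PBS and 232, 70.8, 177 and 148 with ketones. Ketones library 2 lay within the PBS range, and this was the only gene among the 9 whose groups overlapped (log2 change 1.06 ± 0.36, adjusted p = 0.0460). The Itga11 call did not hold in 8 of the 20 alternatives, which include those without PBS libraries 1, 2 or 3 (adjusted p = 0.0867, 0.116 and 0.122) or ketones libraries 1, 3 or 4 (0.1095, 0.0965 and 0.0897). Itga10 and Itga2, the other collagen-binding subunits, were near the minimum level, with Itga10 at 5.50 ± 4.33 and 17.1 ± 6.39 and Itga2 at 5.39 ± 4.93 and 18.9 ± 19.8. Neither passed (adjusted p = 0.132 and 0.561). Without ketones libraries 1 and 2 together, Itga2 passed as higher (adjusted p = 0.0326).

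Itga9 encodes a subunit that binds tenascin-C and VCAM1, the sort marker of these cells (chromosome 9, 118606690 to 118901003). It read 52.0, 67.2, 30.8 and 76.5 in PBS and 257, 258, 103 and 209 with ketones. The groups did not overlap, and the log2 change was 1.84 ± 0.37 (adjusted p = 0.00253). Itga4, the other VCAM1 receptor subunit, averaged 9.89 ± 6.26 in PBS and 20.0 ± 13.2 with ketones (adjusted p = 0.339). Of the fibronectin and nephronectin receptor subunits, Itga5 was at 2741 ± 276 and 2457 ± 834 (interval of the log2 change -0.68 to 0.25) and Itga8 at 1899 ± 134 and 1437 ± 325 (interval -0.80 to -0.06, adjusted p = 0.0840). Without ketones library 4 Itga8 passed as lower (adjusted p = 0.0449).

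**Figure D2:**
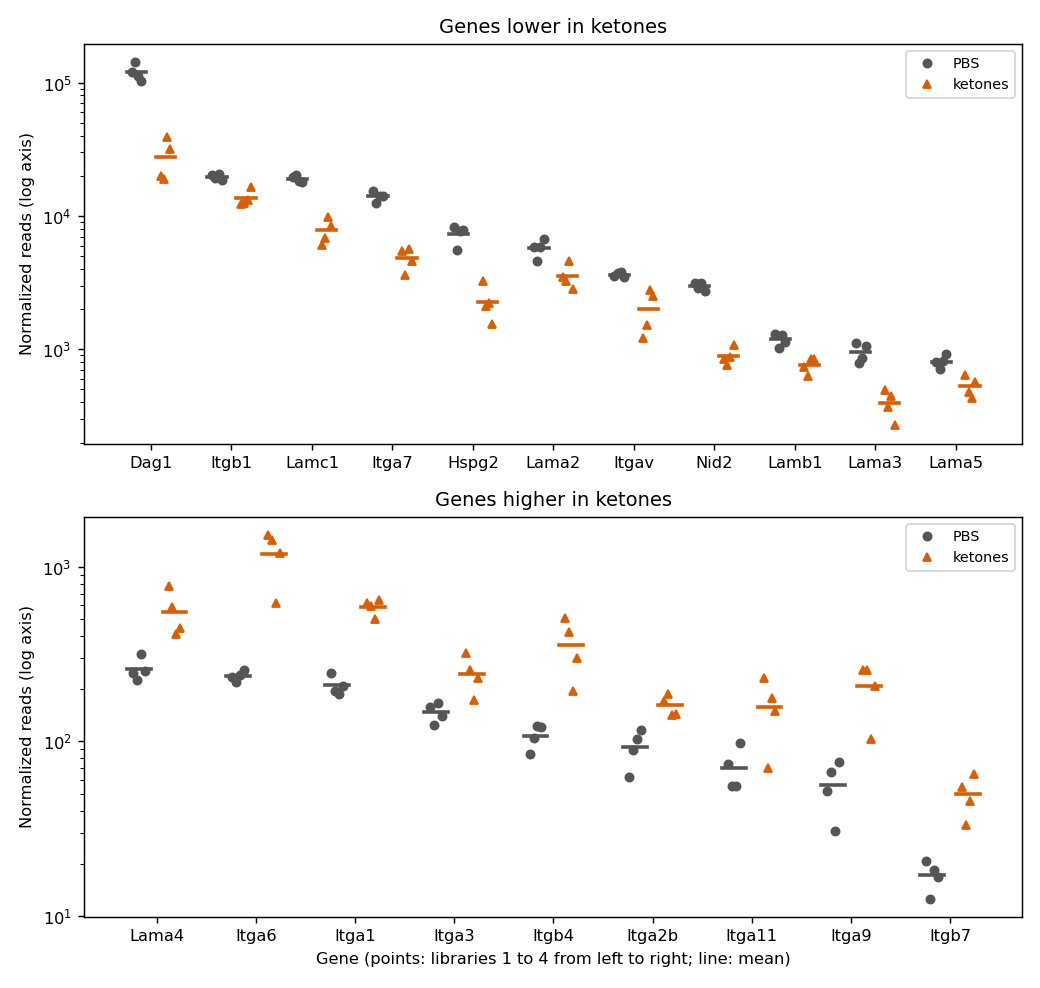
Normalized reads (log vertical axis) of the 11 genes that fell and the 9 that rose, with each PBS library as a grey circle, each ketones library as an orange triangle, libraries 1 to 4 from left to right within a group, and a line at the group mean. Groups are separate in every gene except Itga11, and ketones library 3 is the lowest ketones library in 7 of the 9 genes that rose.

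Genes of blood cell and platelet integrins were low. Itgb7, a beta subunit of lymphocyte homing receptors (chromosome 15, 102215995 to 102231944), read 20.6, 12.6, 18.5 and 16.7 in PBS and 54.9, 33.3, 45.8 and 65.2 with ketones. The groups were apart at this low level, and the log2 change was 1.47 ± 0.43 (adjusted p = 0.0218). It rested on as few as 12 recovered reads in PBS library 2, and the call was lost without PBS library 2 (adjusted p = 0.0548), PBS library 4 (0.0521) or ketones library 4 (0.0614). Itga2b, known as the alpha subunit of the platelet fibrinogen receptor, read 62.7, 89.3, 104 and 116 in PBS and 170, 187, 142 and 143 with ketones. Its log2 change was 0.81 ± 0.27 (adjusted p = 0.0376). The call did not hold in 9 of the 20 alternatives, among them those without PBS libraries 1, 2 or 3 (adjusted p = 0.137, 0.0750 and 0.0612) or ketones libraries 1, 2 or 4 (0.0563, 0.0638 and 0.0548), and without ketones libraries 1 and 2 together (0.112). Its partner Itgb3 averaged 14.1 ± 13.3 in PBS and 42.0 ± 43.6 with ketones (adjusted p = 0.476), but passed as higher without ketones libraries 1 and 2 together (adjusted p = 0.0127).

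The leukocyte subunits Itgal, Itgam and Itgb2 did not pass. Itgb2, the beta subunit shared by leukocyte integrins, read 33.2, 30.5, 11.3 and 5.57 in PBS and 132, 9.66, 21.9 and 85.2 with ketones (adjusted p = 0.266). The high values were in ketones libraries 1 and 4, the libraries with the highest summed level of blood and immune markers. Itgal was at 17.9 ± 8.40 and 38.7 ± 20.9 and Itgam at 11.04 ± 12.5 and 21.9 ± 14.6 (adjusted p = 0.229 and 0.219). Of the partners of Itgav, Itgb5 was at 1405 ± 76.2 and 1305 ± 262 (interval of the log2 change -0.46 to 0.22). Itgb8, which activates latent TGF-beta, read 69.0, 68.3, 94.4 and 73.7 in PBS and 43.4, 63.3, 27.9 and 67.2 with ketones. Its groups did not overlap, yet it did not pass (adjusted p = 0.193). Itgb6, an epithelial subunit, read 16.1, 15.8, 28.7 and 23.7 in PBS and 3.19, 0, 2.99 and 19.1 with ketones (log2 change -2.32 ± 0.90, adjusted p = 0.0732). Without ketones library 4, the one inside the PBS range, Itgb6 passed as lower (adjusted p = 0.0208).

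The 5 genes under the minimum level are given in recovered reads. Itgax, a marker of dendritic cells, had 0 reads in each PBS library, a count that allows up to 3 reads per library, and 16, 0, 10 and 8 reads in ketones libraries 1 to 4. Lama1, an embryonic laminin chain, had 2, 0, 0 and 1 reads in PBS and 0 in all ketones libraries. Itgad had 1 read in the whole table, in ketones library 1. Itgae had 1, 0, 8 and 2 reads in PBS and 0, 0, 3 and 5 with ketones, and Lamb3, of epidermal laminin, had 5, 4, 7 and 9 and then 18, 4, 14 and 10. Of the tested genes, 4 (Itga10, Itga2, Itga4 and Itgb6) had a mean under 10 in only 1 group, and none of these 4 passed with limma.

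Dividing by exon length allowed the genes of a class to be compared with each other within each library. These shares are a description with no test, and they rest on the union of annotated exons. Lama2 gave 65.9 ± 1.38% of the laminin alpha level per kb in PBS and 62.4 ± 6.25% with ketones. Lama4 went from 4.07 ± 0.648% to 13.4 ± 3.48% and Lama3 from 16.7 ± 1.65% to 10.5 ± 1.41%. The Lama4 share was 16.8, 15.0, 8.73 and 12.9% in the ketones libraries, each above the highest PBS library at 4.89%. Lama5 stayed near its share, at 13.4 ± 0.682% and 13.7 ± 3.30%. The summed laminin alpha level itself went from 534 ± 72.7 to 345 ± 49.8 normalized reads per kb. Among laminin gamma genes Lamc1 went from 70.5 ± 3.40% to 54.6 ± 5.30% and Lamc3 from 25.9 ± 3.49% to 39.8 ± 5.09%, while the summed level of the class went from 3250 ± 108 to 1748 ± 456.

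Among integrin alpha genes Itga7 gave 57.8 ± 1.70% of the summed level per kb in PBS and 33.5 ± 7.35% with ketones. Itga6 went from 0.876 ± 0.0460% to 7.33 ± 2.48%. Thus the rise of Itga6 left it below Itga7 in every ketones library, at 9.53, 8.87, 4.01 and 6.91% against 38.2, 25.1, 40.9 and 29.7%. Itga5, the fibronectin receptor subunit, went from 18.6 ± 1.40% to 27.7 ± 9.01%, and was above Itga7 in ketones library 2, at 39.3%, by this length only. With the longest transcript as the length, Itga5 was below Itga7 in that library, at 29.3% against 33.8%. The summed alpha level went from 2994 ± 188 to 1787 ± 87.4 normalized reads per kb. Among beta genes Itgb1 gave 91.7 ± 0.337% in PBS and 87.5 ± 3.12% with ketones, and Itgb4 went from 0.294 ± 0.0534% to 1.37 ± 0.599%. With the longest transcript as the length, each of these shares moved between groups in the same direction, except that of Lama5, at 8.88 ± 0.462% and 8.73 ± 2.17%. The Itga5 share in PBS was then 12.1 ± 0.971%.

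**Figure D3:**
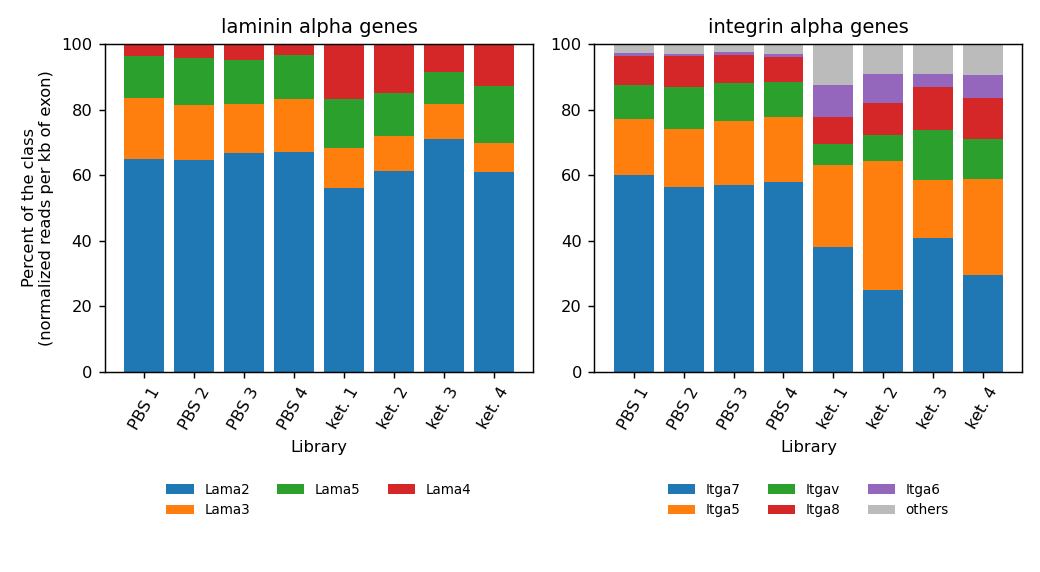
Share (percent, vertical axis) of each gene in the summed level per kb of exon of the laminin alpha and integrin alpha genes, as 1 stacked bar for each PBS and ketones (ket.) library. The Lama4 and Itga6 segments are wider, and the Itga7 segment narrower, in all 4 ketones libraries than in any PBS library.

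Level and direction of change went together in these families. All 14 genes with a mean of at least 1000 normalized reads had a log2 change below 0, and 8 of them passed as lower. Of the 22 genes with a lower mean, 9 passed as higher and 3 as lower. The value of 1000 was chosen after the changes had been seen. Over all genes tested, 20.6% of those at or above this level were lower and 10.2% higher, and of those under it 9.08% were lower and 14.1% higher.

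**Figure D4:**
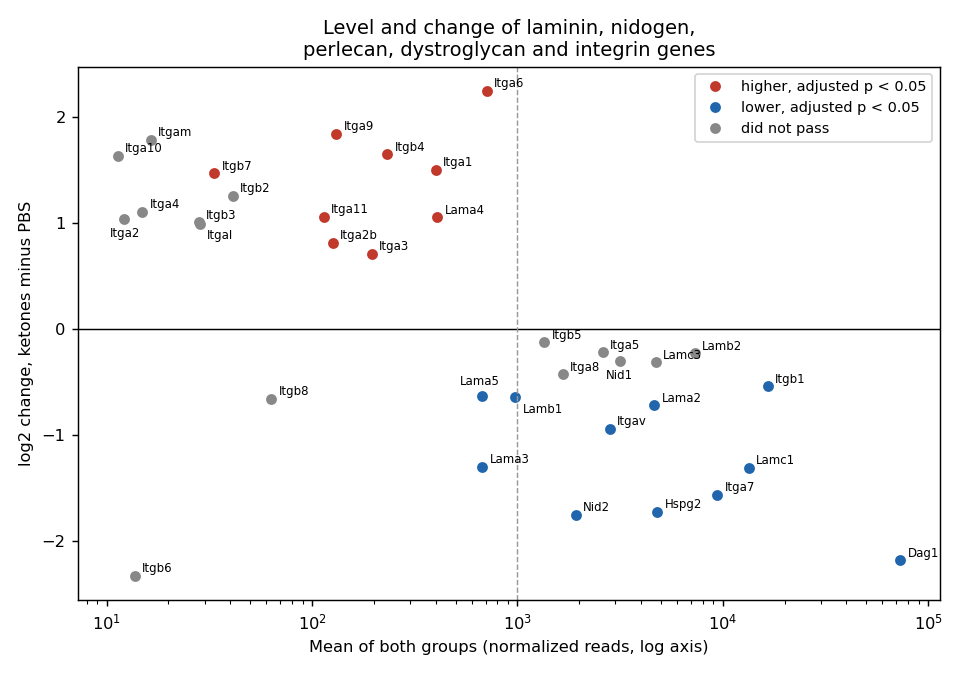
Log2 change (ketones minus PBS) of the tested genes named here against their mean over both groups in normalized reads (log axis), with red for genes that passed as higher, blue for lower and grey for those that did not pass, and a dashed line at 1000. The 14 genes to the right of the line all lie below 0.

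Markers of other cell types differed between the groups. All 18 endothelial markers were higher with ketones (median log2 change 2.60), and their summed level was 10649 to 13299 normalized reads in PBS and 78951, 93269, 38518 and 81419 in ketones libraries 1 to 4. No endothelial marker was at 0. The ketones library with the lowest sum, library 3, was also the lowest of its group for 7 of the 9 genes that rose and the highest for 6 of the 11 that fell. The part of endothelial transcripts in the rise of Lama4, Itga6, Itgb4, Itga1 and Itga9 was not tested. The sort markers were measured too, with Pecam1 (CD31) at 733 ± 118 and 4233 ± 1506, Ly6a (Sca1) at 535 ± 29.7 and 4907 ± 1742, and Ptprc (CD45) at 20.3 ± 5.49 and 94.2 ± 136. Pecam1 and Ly6a passed as higher (adjusted p = 1.68e-05 and 3.28e-06), and Ptprc did not pass (0.217). Vcam1, the marker on which the cells were sorted, was at 42043 ± 3281 and 24880 ± 10765 and fell (adjusted p = 0.0206). Its ketones libraries 1 to 4 read 15580, 19331, 24553 and 40055, the last of which lay within the PBS range of 38702 to 46391.

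The sums of other marker lists shifted by unlike amounts. Smooth muscle and pericyte markers had 9 of 12 higher and 1 lower, with sums of 13859 to 15807 in PBS and 18027 to 31196 with ketones. The number lower was 0 without any 1 of PBS libraries 1 to 4 or ketones libraries 2 or 3, and 2 without ketones library 1. The 1 that fell was Acta2, the largest member in PBS (6526 ± 551 to 4214 ± 1611). Rgs5, among the 9 that rose, went from 1950 ± 176 to 8703 ± 2829, so this sum does not show the size of the rises. Schwann cell markers had 8 of 12 higher, with sums of 14646 to 15780 and 17610 to 23177. Most of each Schwann cell sum came from Pmp22, which did not pass (13339 ± 246 and 12726 ± 3417). Mbp, among the 8 that rose, went from 645 ± 169 to 3369 ± 1048. Blood and immune markers had 8 of 18 tested higher, with sums of 1193 to 1568 in PBS and 12620, 1673, 3642 and 7663 in ketones libraries 1 to 4. Ketones library 2 was thus close to the PBS range for this list. Of 5 platelet markers tested, limma called 0 (also 0 at an unadjusted p below 0.05, and 0 with edgeR and DESeq2), with sums of 78.0 to 125 and 91.3 to 324. Tenocyte markers had 4 of 8 higher, with sums of 90624 to 112119 and 126309 to 177938. Most of each tenocyte sum came from Chodl (91252 ± 7024 in PBS, 128766 ± 23087 with ketones). Limma made no call for Chodl (adjusted p = 0.0886). Fmod and Thbs4, among the 4 that rose, went from 3456 ± 1891 to 14014 ± 6971 and from 1949 ± 888 to 6315 ± 2398. The tenocyte sum thus does not show the size of these rises. Fibro-adipogenic markers had 6 of 14 higher and 3 lower, with sums of 114082 to 161610 and 67338 to 122492. The largest fibro-adipogenic members in PBS were Gsn, which did not pass (74388.5 ± 9767.9 and 52976 ± 12259.8), and Col3a1, which fell (45497.6 ± 8238 to 4701.5 ± 3098.2). Dcn, among the 6 that rose, went from 6344.5 ± 1149.2 to 17336.7 ± 3901.6, so the sum does not show the direction of these 6. Without PBS library 3, the number of lower fibro-adipogenic markers was 1, and without ketones library 1 it was 5. Myofiber markers had 8 of 18 higher and 2 lower, with sums of 12181 to 17090 in PBS and 35516, 7228, 8969 and 6700 with ketones. The 2 that fell were Actn3, the largest member in PBS (7321 ± 1216 to 1876 ± 945), and Pygm (2547 ± 364 to 763 ± 288). Among the 8 that rose, Ckm was at 80.8 ± 27.2 in PBS and 3184, 415, 394 and 289 in ketones libraries 1 to 4. The lower sums of ketones libraries 2 to 4 thus do not show the direction of the 8 that rose. The number of myofiber markers higher was 4 with DESeq2, and the number lower was 5 with library weights and 4 without ketones libraries 1 and 2 together. The part of these cells in the changes of the anchoring genes was not tested.

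Proteins that work with these receptors were followed through 6 lists of partners, whose counts are to be read against the 12.8% of all genes that were lower and the 12.8% that were higher. In the dystrophin glycoprotein complex, which holds dystroglycan in the membrane, 5 of 17 tested genes rose and 2 fell, with a median log2 change of -0.07, so the number that fell was near the share of all genes. Sgca, alpha-sarcoglycan, fell by 1.77 on the log2 scale, from 1939 ± 165 to 571 ± 76.8 normalized reads, and Sntb2, a syntrophin, fell by 0.79. Dysf, the membrane repair protein dysferlin, rose from 59.8 ± 19.7 to 450 ± 180 (log2 change 2.85). Without PBS library 2 or ketones library 4 only 2 of this list rose, without PBS library 1, PBS library 4 or ketones library 3 it was 3, and without ketones library 3 the number that fell was 4. Of the genes that act in making the laminin-binding sugar chain of dystroglycan, 5 of 18 fell and 1 rose (median -0.14). Gmppa and Pomgnt1 were among those that fell, with log2 changes of -0.79 and -0.52. Without PBS library 3 the number of these genes that fell was 2, and without PBS library 1, 2 or 4 or ketones library 2 it was 3. The gene of this list that rose did not pass without PBS library 1, 3 or 4 or ketones library 4, where the number was 0 (1 in the analysis of all 8 libraries).

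Among other basement membrane genes, 10 of 30 fell and 9 rose (median log2 change 0.07). Col15a1 and Col18a1, collagens that bridge the basement membrane to the matrix around it, fell by 2.78 and 1.37 on the log2 scale, the first from 1772 ± 132 to 258 ± 35.0 normalized reads. Both major collagen IV genes, Col4a1 and Col4a2, were among the 10, with log2 changes of -1.30 and -1.10. Sparcl1 and Tinagl1, secreted matrix proteins, rose by 2.53 and 3.12, the latter from 329 ± 108 to 2969 ± 1177. Among other integrin ligands 9 of 29 rose and 8 fell (median -0.22). F11r and Jam2, junctional adhesion molecules that bind leukocyte and other integrins, rose by 2.47 and 2.30. Fbn1, fibrillin-1, and Emilin1 of the elastic fibre fell by 1.42 and 1.34.

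Inside the cell, the focal adhesion list, the proteins that link integrins to actin, had 7 of 34 higher and 8 lower (median log2 change -0.09). Lims2 and Tes rose by 2.36 and 2.04 on the log2 scale, while Flna, filamin A, fell by 1.09 from 20125 ± 1750 to 9459 ± 806 normalized reads. The number that fell was 4 without PBS library 1 or 4 and 5 without PBS library 3. Of the integrin regulators and tetraspanins, 4 of 20 rose and 2 fell (median 0.22). Rasip1, a Rap effector known from endothelium, and Rapgef3, which activates the Rap GTPases that switch integrins on, rose by 2.39 and 2.46. Of the tetraspanins, Cd82 fell by 0.78 from 42618 ± 3087 to 24973 ± 3669 and Cd9 rose by 0.63 from 5907 ± 381 to 9180 ± 1268, while Cd81, Cd151 and Cd63 did not pass (adjusted p = 0.112, 0.381 and 0.866). Without ketones libraries 1 and 2 together, 7 of this list rose and 5 fell.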

How the data were processed

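RNA was measured in 4 PBS and 4 ketones libraries of sorted muscle stem cells, grouped by the labels. Per the labels' protocols, a low-input kit primed cDNA with oligo(dT) and libraries went through 13 to 15 PCR cycles, whose copies are counted as reads. Tools named in the submitters' processing notes were STAR, Trim Galore, Subread, featureCounts and DESeq2 with build mm10, without versions or a strand setting. The deposited table gives a normalized signal per gene, which is reads over a factor for the library. Whole reads could be recovered for 100% of values (within 0.001), with 1 read worth 0.638 to 1.39, and their sum was taken as depth. Every pair of libraries differed beyond counting noise (lowest chi-square 12.72 per degree of freedom), and each was counted as 1 sample. Of 25239 rows, 2 with a date in place of a symbol were left out.

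Genes with a mean of at least 10 were fitted as log2(value + 1) with limma 3.58.1 in R 4.3.3 (eBayes with a trend, no covariates), and p-values (two-sided) were given the Benjamini-Hochberg adjustment over 14022 genes. All adjusted p are from limma. The added 1 shrinks fold changes of low genes, but a fold from means of logs can also exceed that of the mean values. Itgb6 was 5.01-fold lower on this scale, while its mean went from 21.1 to 6.31 normalized reads. Coordinates and exon lengths are from GENCODE M21 (GRCm38), in which 96.4% of symbols and all 41 genes were found. Exons of 14 of the 41 genes overlap another gene, among them Itgav, Nid2, Lama2 and Itgb4 on the opposite strand and Itgam, Itga10 and Itga1 on the same strand, so their reads are uncertain. Intervals and floors cover counting error or library spread only.

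The 20 alternatives were pseudocounts of 0.5 and 5, no filter, a mean of at least 50, TMM scaling, equal totals, library weights, robust estimation, edgeR 4.0.16 and DESeq2 1.42.0 on recovered reads, the library number as a block, each library left out, and ketones libraries 1 and 2 left out together. The genes and lists were chosen with earlier results of these data known. Genes that passed are named with every library, the others by mean, range or interval, and the 4 smallest p of each partner list are named. A few results that this rule would name are left out of the text but count in every total. Col4a1, Col4a2, Acta2, Rgs5, Pmp22, Mbp, Cdh15 and Sdc4 were added after their values were seen.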

Additional observations from a re-analysis of the deposited data

Results flagged for a closer look

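Within each group of 4 libraries, the highest or lowest library was compared with the rest of its group by the gap to its nearest neighbour over the range (Dixon's rule at 95%). Of 72 groups (36 genes in PBS and in ketones), 3 held a library that far apart, and chance alone gives about 1 in 20. Itgb5 was at 1694.6 normalized reads in ketones library 1, with the other ketones libraries at 1136.7 to 1219.3. Itgb6 was at 19.05 in ketones library 4, with the others at 0 to 3.19, and it passed as lower without that library. Lamc3 was at 6159.8 in PBS library 4, with the others at 4714.2 to 4838.8.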

How the results depend on the processing

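Of the 36 genes, 25 kept their call or lack of one in every alternative in which they were tested (20, or 19 for genes with a mean under 50): 9 of the 11 that fell, 5 of the 9 that rose and 11 of the 16 that did not pass, and no called change reversed its sign. With 1 library left out, the number of these genes that rose was 5 to 8 instead of 9 (5 without PBS library 2 or without ketones library 4) and the number that fell was 9 to 14. Over all genes with 1 library left out, the number lower ranged from 1083 without PBS library 1 to 2123 without ketones library 1. It was 1198 without PBS library 3, against 1800 with all libraries. With library weights 2490 genes were lower and 2333 higher. Without ketones libraries 1 and 2 together these numbers were 2436 and 2249. Without a filter, 6 of the genes rose and 11 fell. Equal totals moved the median of all genes to 0.05 and the share of higher calls among all calls to 57.7%, from 50%. With the library number as a replicate block, 7 of the genes rose and 11 fell (1781 and 1814 over all genes), and under this block 4 myofiber markers were lower instead of 2. Deviations of same-numbered libraries from their group means had correlations of 0.106, -0.011, 0.003 and -0.061, so no pairing by number was visible. These correlations cannot tell whether same-numbered libraries were collected or processed together. Low reads limit Itgb7 and the leukocyte subunits, where a few reads decide the value.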
